A study of Mus musculus with 7 samples.

Results

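Acetylcholine is the transmitter of the preganglionic and parasympathetic nerves that reach the pancreas, and 10 genes of its synapse were followed in islet RNA of pregnant mice. They are the rows of the gene table named CHAT, ACHE, SLC5A7, SLC18A3, CHRNA3, CHRNA5, CHRNB2, CHRNB4, CHRM3 and CHRM4, and all 10 were found among 34082 gene names. The islets came from 7 female C57BL/6 mice on day 15 of pregnancy, mated to wild-type males at 3 to 4 months of age by the labels, with 1 library per mouse. The paper gives a somewhat older range for the age at which its mice were studied. By the paper's genotypes, the 4 βPrlR+/- mice lack a prolactin receptor allele in β-cells, and the 3 Prlr+/- mice lack one in all tissues. The deletion in βPrlR+/- mice was made by Pdx1CreER, a tamoxifen-activated Cre recombinase (Cre joined to an estrogen receptor domain) expressed from the Pdx1 promoter. Prlr+/- mice carried no Cre and received no tamoxifen, so genotype, Cre and tamoxifen cannot be told apart in any difference between the groups. The labels describe the conditional deletion as homozygous, the paper as heterozygous, and the sample titles of that group read CkoWt, a term that neither explains. No wild-type mouse was measured here. The RNA is from whole hand-picked islets, with the nerve endings, vessels and exocrine cells that stay attached, and not from sorted cells. In such bulk RNA fewer cells of a type and less RNA per cell cannot be told apart.

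In a cholinergic neuron, choline is taken up by the choline transporter SLC5A7, joined to an acetyl group by choline acetyltransferase CHAT, and loaded into vesicles by SLC18A3, the vesicular acetylcholine transporter. Released acetylcholine acts on nicotinic receptors, which are ion channels of 5 subunits and carry ganglionic transmission, and on muscarinic receptors, which couple to G proteins, until acetylcholinesterase (ACHE) cleaves it. In β-cells the muscarinic receptor CHRM3 couples to Gq and phospholipase C and is known for potentiating glucose-stimulated insulin secretion, whereas CHRM4 couples to Gi. The genes were therefore read as a neuron group (synthesis, uptake, vesicle loading and the ganglionic subunits CHRNA3, CHRNA5 and CHRNB4), as receptors that islet endocrine cells are known to express (CHRM3, CHRM4), and as CHRNB2 and ACHE, which are not particular to neurons.

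The 10 genes fell into 2 patterns. CHAT, SLC5A7, SLC18A3, CHRNA3, CHRNB4 and ACHE were each lower in every Prlr+/- mouse than in every βPrlR+/- mouse, with Prlr+/- means at 45.4% to 66.7% of the βPrlR+/- means. CHRNB2, CHRM3, CHRM4 and CHRNA5 overlapped between the groups, at 79.9% to 113%. None of the 8 genes that could be tested reached an adjusted p under 0.05 (limma, Benjamini-Hochberg over 14840 genes), and the lowest adjusted p was 0.188, for CHRNA3. Of all tested genes 0.0674% reached that threshold. An unadjusted p under 0.05 was found for 5 of the 8, all lower in Prlr+/- mice, beside 2.94% of all tested genes in that direction and 4.52% in either. Non-overlapping groups with lower values in Prlr+/- mice were found for the same 5 of 8 tested genes and for CHAT, which was not tested, beside 3.11% of all tested genes. No member was higher without overlap, beside 1.84%. The median log2 fold change of the 8 tested genes was -0.43, and that of all tested genes 0.0042. ACHE, SLC5A7, SLC18A3 and CHRNA3 are on the list of changed genes that the study drew from these same mice, so their direction is not independent evidence. CHAT and CHRNB4 are not on it. By RT-qPCR the paper also reports lower Ache in islets of pregnant Prlr+/- mice than of pregnant βPrlR+/- mice. In non-pregnant mice of these genotypes it detected no significant difference in Ache. Whether the mice measured by RT-qPCR include the sequenced ones is not stated.

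**Figure D1:**
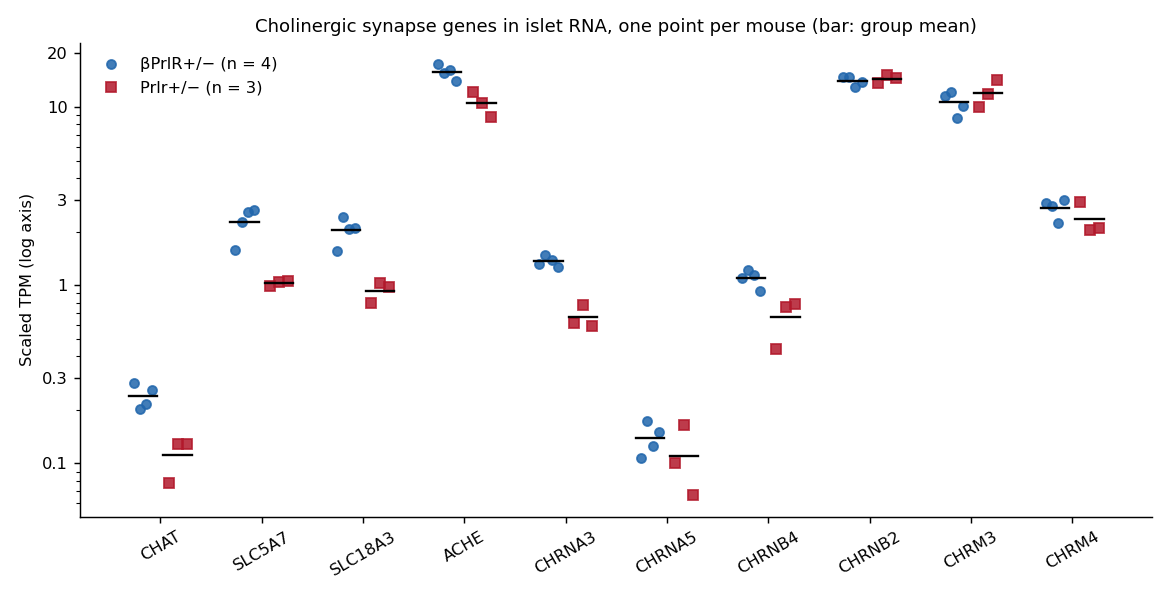
Scaled TPM of the 10 genes on a log axis, with 1 point per mouse, circles for βPrlR+/- (n = 4), squares for Prlr+/- (n = 3) and bars for group means. The squares lie below all circles for CHAT, SLC5A7, SLC18A3, ACHE, CHRNA3 and CHRNB4 and at least 1 square lies within the range of the circles for CHRNA5, CHRNB2, CHRM3 and CHRM4.

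Values are TPM, the length-corrected share of a gene in all transcripts of a mouse, divided by a size factor for each mouse (scaled TPM). Because of the length correction, levels of different genes can be set side by side. In βPrlR+/- mice the order of mean scaled TPM was ACHE (15.8 ± 1.41 SD, n = 4), CHRNB2 (14.04 ± 0.833), CHRM3 (10.6 ± 1.55), CHRM4 (2.73 ± 0.344), SLC5A7 (2.27 ± 0.493), SLC18A3 (2.04 ± 0.352), CHRNA3 (1.36 ± 0.0881), CHRNB4 (1.10 ± 0.119), CHAT (0.239 ± 0.0373) and CHRNA5 (0.139 ± 0.0288). Neighbours whose ranges overlapped in that order were ACHE with CHRNB2, CHRM4 with SLC5A7, and SLC5A7 with SLC18A3. In Prlr+/- mice ACHE (10.5 ± 1.71, n = 3) fell behind CHRNB2 (14.4 ± 0.789) and CHRM3 (12.0 ± 2.15), and the ranges of CHRNB2 and CHRM3, of CHRM3 and ACHE, of SLC5A7 and SLC18A3, of CHRNA3 and CHRNB4, and of CHAT and CHRNA5 overlapped. Of 27935 genes above 0 in any mouse, CHRNB2 ranked 4702, ACHE 4914 and CHRM3 5690 by mean level, whereas CHAT ranked 17292 and CHRNA5 18335. CHAT and CHRNA5 lay under the mean of 0.5 TPM required for the reported limma test and were compared by an exact permutation test, which is two-sided here and runs over the 35 possible splits of the mice, giving 0.0286 as the smallest possible p.

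Of the acetylcholine-making genes, CHAT encodes the enzyme that defines a cholinergic cell. Scaled TPM of CHAT was 0.282, 0.202, 0.214 and 0.258 in the βPrlR+/- mice (numbered 1 to 4) against 0.0777, 0.128 and 0.129 in the Prlr+/- mice (numbered 1 to 3). All 3 Prlr+/- values lay below the lowest βPrlR+/- value, and the Prlr+/- mean was 46.7% of the βPrlR+/- mean (exact permutation p = 0.0286, the smallest these splits give). These levels are low, and TPM values hold no read counts per gene, so no counting error is given for CHAT. When all genes above 0 were tested, CHAT had a limma adjusted p of 0.495 and CHRNA5 of 0.999.

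SLC5A7, the high-affinity choline transporter of cholinergic terminals, had scaled TPM of 1.57, 2.27, 2.56 and 2.66 in βPrlR+/- mice and 0.991, 1.04 and 1.06 in Prlr+/- mice. The Prlr+/- mice were close together and all below the βPrlR+/- mice, of which mouse 1 was the lowest. The log2 fold change on log2(scaled TPM + 1) was -0.67 (SE 0.13, limma adjusted p = 0.348, exact permutation p = 0.0571), and the Prlr+/- mean was 45.4% of the βPrlR+/- mean. Without βPrlR+/- mouse 1 its limma adjusted p was 0.0741, the lowest of any member under any of the settings tried.

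SLC18A3, which fills synaptic vesicles with acetylcholine, had scaled TPM of 1.56, 2.42, 2.08 and 2.09 in βPrlR+/- mice and 0.799, 1.03 and 0.972 in Prlr+/- mice. The groups did not overlap, and βPrlR+/- mouse 1 was again the lowest of its group. SLC18A3 had a log2 fold change of -0.65 (SE 0.11, limma adjusted p = 0.247, exact permutation p = 0.0286), with the Prlr+/- mean at 45.8%. Slc18a3 lies within Chat in the RefSeq annotation, both on the same strand, an arrangement known as the cholinergic gene locus. Whether the transcripts share exonic sequence was not tested.

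The proportions of the presynaptic genes within a mouse overlapped between the groups. The ratio of SLC5A7 to SLC18A3 lay between 0.941 and 1.27 in all 7 mice, with a mean of 1.11 ± 0.164 in βPrlR+/- mice (SD, n = 4) and 1.11 ± 0.118 in Prlr+/- mice (n = 3, exact permutation p = 0.914). The ratio of SLC18A3 to CHAT was 8.84 ± 2.70 (n = 4) and 8.62 ± 1.47 (n = 3, exact permutation p = 1.0), ranging from 5.55 to 12.0. The transcript of the vesicular transporter was thus the more abundant of the locus in every mouse.

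The sequences that RefSeq lists just before the start of 4 of these genes are shown here because SLC5A7, SLC18A3 and CHRNA3 did not overlap between the groups and CHRNB2 did. Each is the last 100 bases before the annotated start, 5′ to 3′ on the gene's strand, from RefSeq on GRCm38.p6. Capitals mark E-boxes (CANNTG, the same on both strands), the element that HAND2 and other basic helix-loop-helix factors are known to recognise. The homeodomain core ATTA was also searched on both strands (as ATTA or TAAT) and is in none of these 4 windows. 
Slc5a7 (chr17:54299035-54299134, minus strand): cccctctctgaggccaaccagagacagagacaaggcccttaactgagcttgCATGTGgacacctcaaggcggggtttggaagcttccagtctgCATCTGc
Slc18a3 (chr14:32464851-32464950, minus strand): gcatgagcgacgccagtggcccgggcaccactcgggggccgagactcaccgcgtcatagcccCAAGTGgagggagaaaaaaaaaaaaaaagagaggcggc
Chrna3 (chr9:55026563-55026662, minus strand): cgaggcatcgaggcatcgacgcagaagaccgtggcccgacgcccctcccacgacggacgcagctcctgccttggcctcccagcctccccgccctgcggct
Chrnb2 (chr3:89764633-89764732, minus strand): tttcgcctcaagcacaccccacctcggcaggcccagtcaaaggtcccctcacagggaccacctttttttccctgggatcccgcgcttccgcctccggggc

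The Slc18a3 window lies in an intron of Chat in GENCODE vM21, and the other 3 lie in no annotated gene. Of the 11 windows of the 10 genes, 4 held an E-box, namely those of CHAT and SLC18A3 with 1 each and of SLC5A7 and CHRNB4 with 2 each. Of 32851 listed promoters, 34.4% held one in a window of the same length. The homeodomain core was found in 1 window, the first of 2 of CHRNA5, beside 27.3% of promoters. The windows of CHRNA3, ACHE, CHRNB2, CHRM3 and CHRM4 held neither.

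The nicotinic subunits α3 and β4, from CHRNA3 and CHRNB4, form the main receptor of autonomic ganglia, and α5, from CHRNA5, is an accessory subunit. The genes neighbour each other as Chrna5, Chrna3 and Chrnb4 in the RefSeq annotation. Scaled TPM of CHRNA3 was 1.32, 1.47, 1.38 and 1.26 in βPrlR+/- mice and 0.613, 0.776 and 0.590 in Prlr+/- mice. The groups were narrow and well apart, with the Prlr+/- mean at 48.5%. On log2(scaled TPM + 1), where the pseudocount shrinks the change, CHRNA3 had a log2 fold change of -0.51 (SE 0.081, limma adjusted p = 0.188, exact permutation p = 0.0286).

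Scaled TPM of CHRNB4 was 1.10, 1.22, 1.14 and 0.933 in βPrlR+/- mice and 0.438, 0.755 and 0.786 in Prlr+/- mice. The groups did not overlap, but the gap between βPrlR+/- mouse 4 and Prlr+/- mouse 3 was small, and the Prlr+/- mean was 60.2%. CHRNB4 had a log2 fold change of -0.34 (SE 0.11, limma adjusted p = 0.901, exact permutation p = 0.0286). CHRNA5 was low in all mice, at 0.107 to 0.173 scaled TPM in βPrlR+/- mice and 0.0664 to 0.165 in Prlr+/- mice, with overlapping groups (exact permutation p = 0.371). Chrna5 and Chrna3 overlap on opposite strands at their ends in the annotation, and whether strand was used in the authors' read assignment is not stated. The ratio of CHRNA3 to CHRNB4 was 1.25 ± 0.0715 in βPrlR+/- mice (SD, n = 4) and 1.06 ± 0.326 in Prlr+/- mice (n = 3, exact permutation p = 0.229), so the data do not show a difference in the proportion of the ganglionic pair.

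CHRNB2 encodes the β2 subunit, which pairs with several α subunits in brain and endocrine cells. Its scaled TPM was 14.7, 14.7, 13.0 and 13.8 in βPrlR+/- mice and 13.6, 15.2 and 14.5 in Prlr+/- mice. The groups overlapped, with the highest value in Prlr+/- mouse 2 and the lowest in βPrlR+/- mouse 3. Its log2 fold change was 0.04, with a 95% confidence interval of -0.12 to 0.20 (limma adjusted p = 1.0), an interval that leaves out decreases of the size fitted for CHRNA3. Chrnb2 overlaps Adar in the annotation, and shared reads were not tested.

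The ratio of the 2 kinds of nicotinic subunit within a mouse restates these levels on 1 scale and is no independent test, since CHRNA3 is on the study's list drawn from these mice. CHRNB2 was 11.1, 9.97, 9.37 and 10.9 times CHRNA3 in βPrlR+/- mice and 22.2, 19.6 and 24.6 times in Prlr+/- mice. Every Prlr+/- ratio was above every βPrlR+/- ratio (exact permutation p = 0.0286, adjusted p = 0.0743 over 13 ratios). The ratio of CHRNB2 to CHRNB4 was 12.9 ± 1.51 in βPrlR+/- mice and 23.2 ± 6.84 in Prlr+/- mice, also without overlap and with the same exact permutation p.

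**Figure D2:**
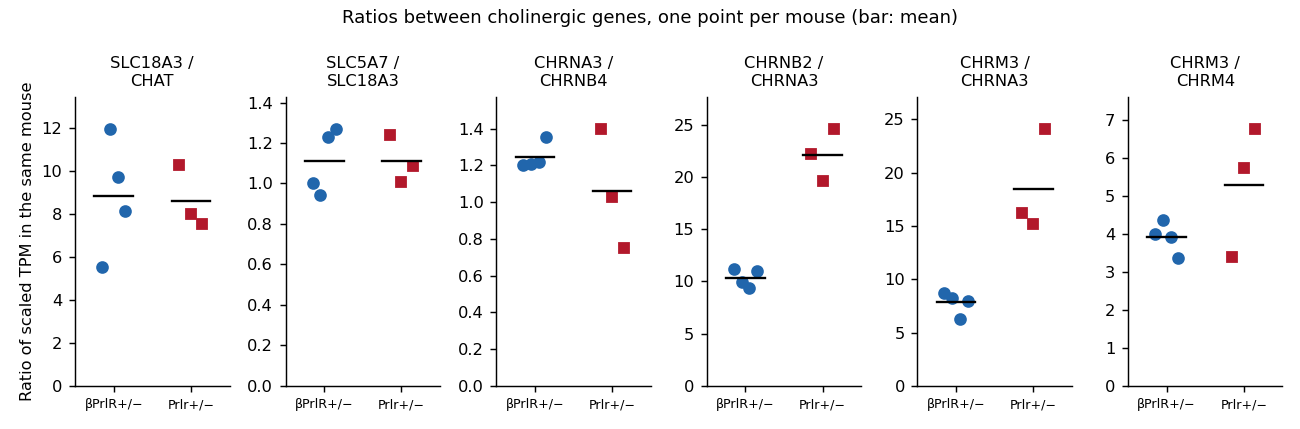
Ratio of the scaled TPM of 2 cholinergic genes in the same mouse, with 1 point per mouse, bars for group means and an axis from 0 in each panel. The ratios of SLC18A3 to CHAT, SLC5A7 to SLC18A3, CHRNA3 to CHRNB4 and CHRM3 to CHRM4 overlap between groups, and those of CHRNB2 and CHRM3 to CHRNA3 are higher in all Prlr+/- mice.

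ACHE, the enzyme that ends the signal, was among the most abundant of the set. Its scaled TPM was 17.4, 15.5, 16.1 and 14 in βPrlR+/- mice and 12.2, 10.5 and 8.80 in Prlr+/- mice. The groups did not overlap, and the Prlr+/- mean was 66.7% of the βPrlR+/- mean, a smaller difference in proportion than for CHAT, SLC5A7 and SLC18A3. The log2 fold change was -0.55 (SE 0.11, limma adjusted p = 0.448, exact permutation p = 0.0286). ACHE was 54.3 to 76.9 times CHAT in βPrlR+/- mice and 68.4 to 157 times in Prlr+/- mice, with overlapping groups (exact permutation p = 0.143), so the smaller difference was not shown to differ from that of CHAT.

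CHRM3, the receptor known for the β-cell response to acetylcholine, had scaled TPM of 11.6, 12.2, 8.72 and 10.1 in βPrlR+/- mice and 9.95, 11.8 and 14.2 in Prlr+/- mice. The groups overlapped, with both the highest value, in Prlr+/- mouse 3, and the lowest, in βPrlR+/- mouse 3, at the edges. The log2 fold change was 0.15, with a 95% confidence interval of -0.18 to 0.49 (limma adjusted p = 1.0), which does not show that the levels are alike. The ratio of CHRM3 to CHRNA3 was 7.83 ± 1.06 in βPrlR+/- mice and 18.5 ± 4.89 in Prlr+/- mice, and that of CHRM3 to SLC18A3 was 5.36 ± 1.40 and 12.8 ± 1.65. Neither ratio overlapped between groups, which restates the levels of genes on the same list (exact permutation p = 0.0286 each, adjusted p = 0.0743 over the 13 ratios).

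CHRM4, the Gi-coupled receptor, had scaled TPM of 2.91, 2.79, 2.23 and 2.99 in βPrlR+/- mice and 2.94, 2.05 and 2.11 in Prlr+/- mice. Prlr+/- mouse 1 lay among the βPrlR+/- mice and the other 2 below all of them. Its log2 fold change was -0.15, with a 95% confidence interval of -0.44 to 0.13 (limma adjusted p = 1.0). The ratio of CHRM3 to CHRM4 was 3.91 ± 0.406 and 5.29 ± 1.73, with overlap (exact permutation p = 0.2). Chrm4 overlaps Mdk in the annotation, and shared reads were not tested.

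**Figure D3:**
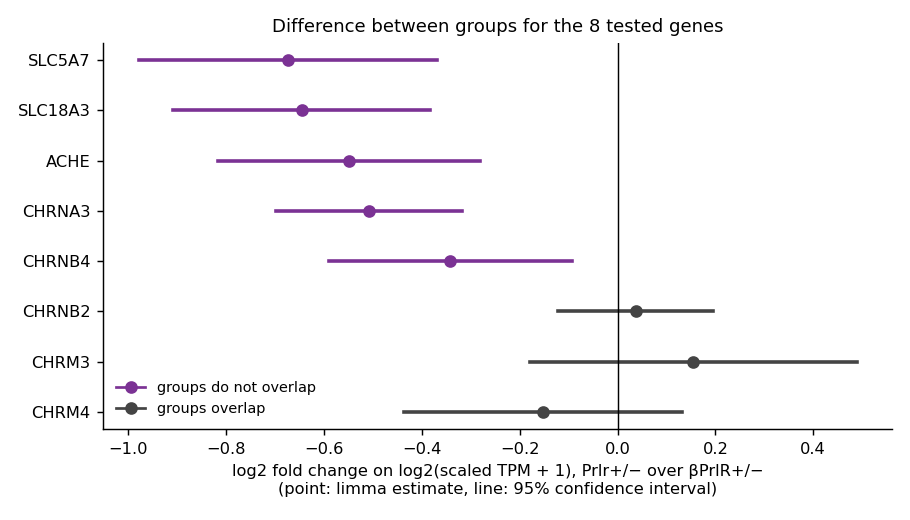
Log2 fold change on log2(scaled TPM + 1) of Prlr+/- over βPrlR+/- mice for the 8 tested genes, as the limma estimate (point) with its 95% confidence interval (line). The intervals of SLC5A7, SLC18A3, ACHE, CHRNA3 and CHRNB4 lie below 0 without adjustment for the number of genes, and those of CHRNB2, CHRM3 and CHRM4 span it.

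The pseudocount of 1 shrinks the fitted change of genes near 1 TPM. Without it, a choice made after seeing the data, the mean log2 difference was -1.12 for CHAT, -1.12 for SLC18A3, -1.05 for CHRNA3, -0.77 for CHRNB4 and -0.59 for ACHE (exact permutation p = 0.0286 each), and -1.11 for SLC5A7 (exact permutation p = 0.0571). On that scale CHAT, SLC5A7, SLC18A3 and CHRNA3 differed by about the same amount although their levels differ.

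The gene values are sums over 24 RefSeq transcripts of the 10 genes, with 1 transcript each for CHAT, SLC18A3, CHRNA3 and CHRNB2. ACHE had 6 transcripts, and the leading one held 53.3% of its level, 8.36 ± 1.40 scaled TPM in βPrlR+/- mice and 5.65 ± 2.08 in Prlr+/- mice. The second held 21.5%, at 3.54 ± 1.13 and 2.05 ± 0.770. Both overlapped between groups, and of the other transcripts only the least abundant, with 2.58% of the gene, was lower without overlap (exact permutation p = 0.0571).

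Of the 2 CHRM3 transcripts, the predicted one held 75.4% and the curated one 24.6%, and both overlapped between groups. The leading SLC5A7 transcript held 71.7%, at 1.64 ± 0.439 in βPrlR+/- and 0.717 ± 0.219 in Prlr+/- islets, without overlap (exact permutation p = 0.0571). The leading CHRNB4 transcript, at 49.3% of the gene, was 0.574 ± 0.0362 and 0.279 ± 0.179, also without overlap (exact permutation p = 0.0286). The share of that transcript in the gene was 48.4% to 60.5% in βPrlR+/- mice and 18.8% to 61.4% in Prlr+/- mice.

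**Figure D4:**
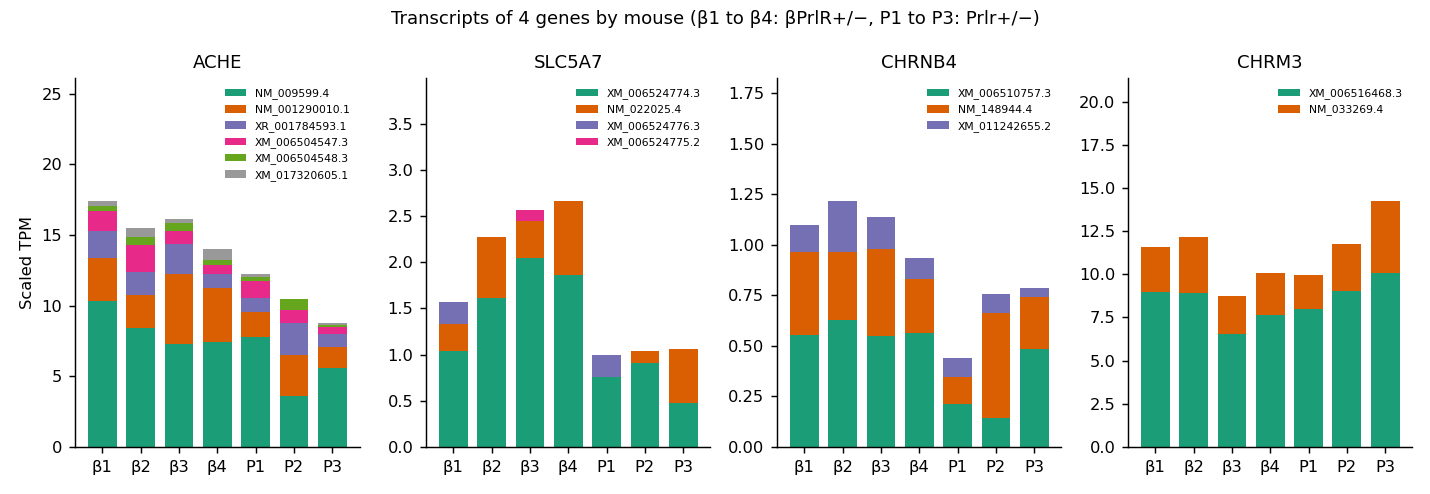
Scaled TPM of each RefSeq transcript, stacked to the gene level, for ACHE, SLC5A7, CHRNB4 and CHRM3 in βPrlR+/- mice (β1 to β4) and Prlr+/- mice (P1 to P3). The stacks of ACHE, SLC5A7 and CHRNB4 are lower in all Prlr+/- mice with shares that vary from mouse to mouse, and those of CHRM3 overlap.

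Other genes of the pathway were taken from lists. Of 12 other nicotinic subunits only CHRNA7, the subunit of homomeric α7 receptors, was expressed highly enough to test, at 0.917 ± 0.203 scaled TPM in βPrlR+/- and 0.462 ± 0.153 in Prlr+/- islets, without overlap (log2 fold change -0.39, limma adjusted p = 0.859). CHRNB1, of the muscle receptor, was 0.563 ± 0.117 and 0.390 ± 0.0926, and CHRNA4, the usual brain partner of β2, 0.348 ± 0.144 and 0.437 ± 0.121, both with overlap. CHRNB2 was thus far above the α subunits measured here in islet RNA.

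Of the 3 other muscarinic receptors, CHRM2 was at 1.60 ± 0.521 in βPrlR+/- and 0.871 ± 0.223 in Prlr+/- islets, with overlap (log2 fold change -0.46, limma adjusted p = 1.0). CHRM1 was at 0.248 ± 0.0624 and 0.134 ± 0.00570, without overlap, and CHRM5 was close to 0. CHRM3 was the most abundant muscarinic receptor in both groups.

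Among 8 genes that assemble or modulate nicotinic receptors, 5 were tested and none passed. LYNX1, a membrane-anchored modulator of these receptors, was at 1.11 ± 0.117 and 0.755 ± 0.0287, without overlap (log2 fold change -0.27, limma adjusted p = 0.851). The chaperone RIC3 was at 9.51 ± 0.928 and 8.59 ± 0.741, LY6H at 12.9 ± 2.03 and 9.44 ± 3.12, and UNC50 at 51.4 ± 2.81 and 49.98 ± 1.74, each with overlap.

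Among 13 genes that anchor cholinesterases or handle choline, 8 were tested and none passed. SLC10A4, a transporter-like protein of cholinergic and aminergic vesicles, was at 1.68 ± 0.123 in βPrlR+/- and 0.807 ± 0.0792 in Prlr+/- islets, without overlap (log2 fold change -0.57, limma adjusted p = 0.0933), and it is on the study's list drawn from these mice. COLQ and PRIMA1, which tether ACHE outside the cell, were under the filter, at 0.554 ± 0.154 and 0.253 ± 0.0865 for COLQ and 0.456 ± 0.107 and 0.250 ± 0.0786 for PRIMA1, both without overlap; they were named after their values were seen. The general choline transporters SLC44A1 (31.3 ± 2.77 and 31.2 ± 1.98) and SLC44A3 (27.0 ± 1.48 and 27.8 ± 3.40) and the choline kinase CHKA (29.5 ± 1.77 and 30.1 ± 6.56), which serve membrane lipid synthesis in all cells, overlapped. SLC44A2 was lower without overlap, at 6.84 ± 0.181 and 5.72 ± 0.436 (log2 fold change -0.22, limma adjusted p = 0.807).

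Downstream of the muscarinic receptors, 23 of 25 genes of the Gq arm were tested and none passed, with 12 fitted lower, 11 fitted higher and a median log2 fold change of -0.01. The Gq subunit GNA11 was at 36.4 ± 1.34 and 37.4 ± 2.27 scaled TPM, and the cation channel TRPM5 at 35.3 ± 15.8 and 51.9 ± 5.85, both with overlap. GRK2, a kinase that desensitises receptors, was higher in Prlr+/- mice without overlap, at 29.0 ± 1.45 and 32.1 ± 1.66, and ARRB1, an arrestin, lower, at 1.38 ± 0.0497 and 1.10 ± 0.220, with a limma adjusted p of 1.0 each.

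In the Gi arm 7 of 8 genes were tested, none passed, and the median log2 fold change was 0.05. GNAI2 was at 297 ± 59.5 and 364 ± 16.0, with overlap, GNAO1 at 92.6 ± 1.42 and 96.1 ± 3.87, with overlap, and GNAI3 at 33.7 ± 1.61 and 36.8 ± 1.05, without overlap (log2 fold change 0.13, limma adjusted p = 1.0). KCNJ3, a channel subunit opened by Gi-coupled receptors, was lower without overlap, at 1.35 ± 0.224 and 0.863 ± 0.159 (log2 fold change -0.33, limma adjusted p = 0.924).

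**Figure D5:**
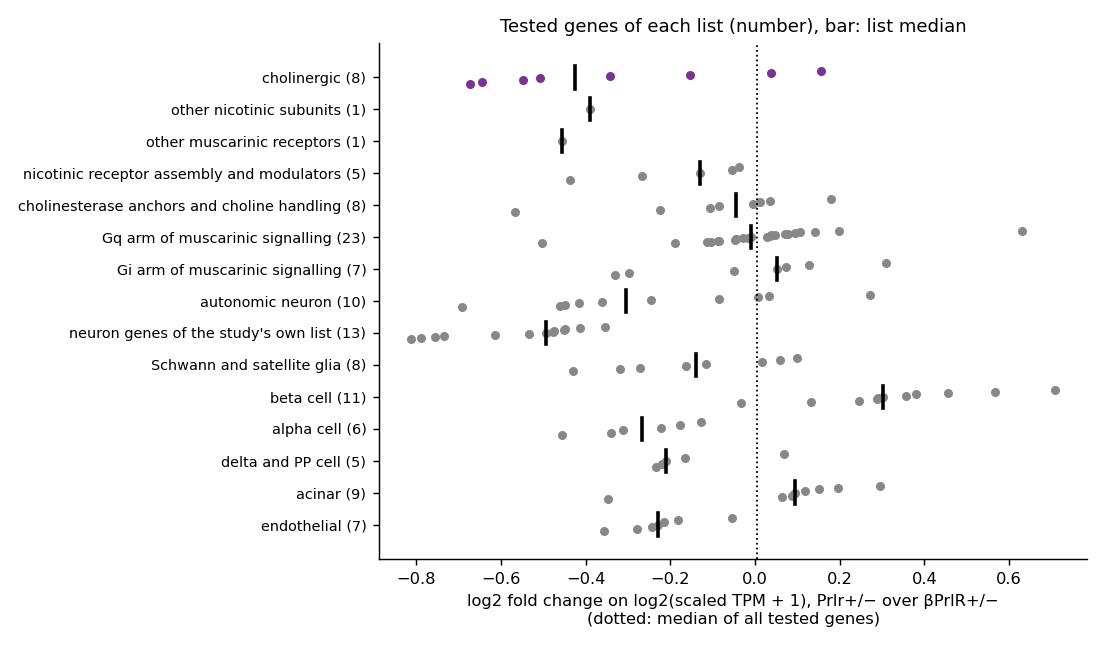
Log2 fold change of Prlr+/- over βPrlR+/- mice for the tested genes of each list, with 1 point per gene, the number tested in brackets, a bar at the list median and a dotted line at the median of all tested genes. The cholinergic genes spread from -0.67 to 0.15, the Gq arm centres on -0.01, and the β-cell list has its median at 0.30.

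Fitted values of cell markers differed between the groups to differing extents, and outside the study's own neuron genes none passed the limma test. Whether they account for the cholinergic results was not tested. In a list of 10 tested autonomic neuron genes, 7 were fitted lower and 3 higher, with a median log2 fold change of -0.30, and none passed. GAP43, a growth cone protein, was lower without overlap (5.21 ± 0.381 and 3.85 ± 0.691), and the RNA-binding protein gene ELAVL4 higher without overlap (10.8 ± 0.415 and 13.3 ± 1.48). Under the filter, ELAVL3 (0.268 ± 0.0324 and 0.148 ± 0.0126) and STMN4 (0.359 ± 0.103 and 0.151 ± 0.0649) were also lower without overlap, and both were named after their values were seen. The summed level of that list was 114 to 271 scaled TPM in βPrlR+/- mice and 113 to 150 in Prlr+/- mice, led by the neuropeptide gene VIP at 103 ± 46.3 and 58.9 ± 13.8, and HAND1 was at 0 in all mice. All 13 neuron genes that the study itself had picked from these mice were lower without overlap, which is not independent evidence since they were chosen in these mice, and 4 passed the limma test, PRPH, STMN2, THY1 and SNCG. TH, the enzyme of catecholamine synthesis, was at 30.2 ± 2.23 and 28.1 ± 5.84, with overlap, while DBH and SLC6A2, which define noradrenergic neurons, were near 0.

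When the mean log2 level of the 10 tested autonomic neuron genes was subtracted in each mouse, SLC18A3 was lower in Prlr+/- mice by 0.41 without overlap (exact permutation p = 0.0286), and SLC5A7 by 0.43 (exact permutation p = 0.0571). ACHE, CHRNA3 and CHRNB4 overlapped on that scale, at -0.31, -0.27 and -0.10. That mean includes ELAVL4, which was higher in Prlr+/- mice, and VIP and TAC1, which varied widely between mice. It leaves out ELAVL3 and STMN4, which were under the filter and lower without overlap. Whether it follows the neuron content of the islets was not tested. Against the mean of the study's own neuron genes, SLC5A7, SLC18A3, CHRNA3 and ACHE overlapped between the groups (differences of -0.11, -0.08, 0.06 and 0.02), and CHRNB4, CHRNB2, CHRM3 and CHRM4 were higher without overlap, by 0.22, 0.60, 0.72 and 0.41. Because those neuron genes, and the first 4 members with them, were chosen as lower in these same mice, this outcome follows from the choice and is a description.

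The β-cell list was fitted higher in Prlr+/- mice for 10 of 11 genes, with a median log2 fold change of 0.30 and none passing, and the 6 α-cell genes were all fitted lower, with a median of -0.27. INS and Ins1, the insulin genes, took 46.1% to 58.9% of the TPM of a mouse. Relative to the mean of the β-cell list the difference in CHRM3 was -0.18, with overlap (exact permutation p = 0.371), in place of 0.15. Over the 7 mice CHRM3 and the β-cell list mean had Pearson's r = 0.419 (permutation p = 0.349) and Spearman's rho = 0.393 (permutation p = 0.396), and r = 0.736 without the 2 mice farthest from the median. Leaving out 2 mice in this way gave r from -0.975 (CHRM3 with the δ- and PP-cell list) to 0.961 (CHRNB2 with the β-cell list) over the 12 relations computed, with 5 mice left in each. Of these 12 relations, of CHRNB2, CHRM3 and CHRM4 with the β-, α-, δ- and PP-cell and acinar list means, none had an adjusted permutation p under 0.05, and the lowest was 0.529.

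Acinar cells also express CHRM3. The summed level of 10 acinar genes was 2300 to 20278 scaled TPM in βPrlR+/- mice and 6423 to 16613 in Prlr+/- mice, with the highest sums in βPrlR+/- mice 3 and 1 (20278 and 20063), where CHRM3 was at 8.72 and 11.6. Over the 7 mice CHRM3 and the acinar list mean had Pearson's r = -0.278 (permutation p = 0.546) and Spearman's rho = -0.321 (permutation p = 0.498), and r = 0.326 without the 2 mice farthest from the median. The 7 endothelial genes were all fitted lower in Prlr+/- mice, with a median of -0.23, none passing, and summed levels of 164 to 199 and 139 to 170. PECAM1, CDH5 and ESAM, 3 of the 7, were lower without overlap, and 4 of the 7 had an unadjusted p under 0.05 (limma), beside 3.11% and 2.94% of all tested genes in that direction. Schwann and satellite glia genes had a median of -0.14 over 8 tested, with 1 of 8, S100B, lower without overlap. Relative to the mean of that glial list, ACHE, CHRNA3, SLC5A7 and SLC18A3 were lower without overlap, at -0.41, -0.37, -0.53 and -0.51 on the log2 scale, and CHRNB4 overlapped, at -0.20 (exact permutation p = 0.0857). Duct genes had a median of 0.05 over 4 tested, and of the lymphocyte markers CD79A was at 15.9 ± 4.55 and 18.8 ± 3.67 and the rest were near 0. PRLR itself was at 38.4 to 55.7 scaled TPM in βPrlR+/- mice and 35.1 to 51.1 in Prlr+/- mice. Both groups are described as carrying a deletion and no wild-type mouse was measured. The labels and the paper also differ on its dose in βPrlR+/- mice, so these values do not check the labels.

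By likeness of pattern over the 7 mice, as Pearson's r on the log2 scale among 14840 genes, the genes most like CHRNA3 were HAND2 (0.987), a transcription factor of autonomic neurons, SLC10A4 (0.982) and PRPH (0.979), which encodes the neuronal filament peripherin. SLC18A3 ranked 22, ACHE 101, SLC5A7 104 and CHRNB4 109 by the same measure, and CHRNB2 ranked 9640 and CHRM3 12089. Those most like CHRM3 were TMOD1 (0.998), SWSAP1 (0.988) and DNAJC3 (0.982). With so few mice a high r is common, and the median over all tested genes of the third-best r was 0.975. The ranks by likeness to CHRNA3 pool both groups, so they in part restate the group differences given above and are no separate evidence. CHRNA3, HAND2, SLC10A4, PRPH, SLC18A3, ACHE and SLC5A7 are also all on the study's list drawn from these mice. Likeness within each group was not tested.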

How the data were processed

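RNA was sequenced from islets of 4 βPrlR+/- and 3 Prlr+/- mice, with 1 library per mouse. Groups were taken from the deletion tissue in the labels, and mice were numbered in the order of the labels. The authors isolated poly(A) RNA, made directional libraries and assigned reads to mouse RefSeq transcripts with Kallisto (0.42.4 in the submitters' processing notes). The genome build is not given in the sources used here. The deposited values are called FPKM in the paper's methods, but each mouse sums to 1000000, and the deposited numbers were treated as TPM here, for 107384 transcripts and 34082 gene names. Each gene value was the sum of its transcripts. TPM keeps no depth, so no counting interval or detection floor is given. The tables of single mice repeat the values of the joint tables and were not used.

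Median-ratio size factors scaled the TPM of each mouse. After a filter on the mean TPM (0.5 or more), 14840 genes entered limma 3.58.1 (mean-variance trend, R 4.3.3) as log2(scaled TPM + 1). Adjusted p-values (Benjamini-Hochberg) were called under 0.05, and fold changes give Prlr+/- relative to βPrlR+/-. Single genes and ratios were compared by two-sided exact permutation tests over 35 splits. The model was tested on simulated data first, with planted changes larger than those fitted for the members. That check does not show whether changes of the members' size would be found. P-values measure the spread between these mice. The members and lists were chosen with earlier results of these data known. Named genes are the 10 members and, of each list, the 3 highest by level, all with an adjusted p under 0.05 and up to 4 without overlap; the 3 genes most like CHRNA3 and CHRM3 are a description. Some list genes are not reported here. The motifs were chosen after the values had been seen. Promoter sequences and gene order are from RefSeq (GRCm38.p6), in which all 10 members matched, and windows were annotated with GENCODE vM21. Alternatives were TPM as deposited, upper-quartile scaling, TPM without the insulin genes, a pseudocount of 0.1, other filters, the neuron list mean as a covariate, a robust variance, the transcript level, differences from list means, and leaving out each mouse; no pseudocount was added after seeing the data. Python 3.11.15, numpy 2.4.6, pandas 2.3.3, scipy 1.17.1 and matplotlib 3.10.9 were used.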

Additional observations from a re-analysis of the deposited data

Results flagged for a closer look

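The summed level of the Schwann and satellite glia list was 28.3 scaled TPM in βPrlR+/- mouse 4, far below the other βPrlR+/- mice, whose sums lay close together at 32.9 to 33.8. It was the only value past Dixon's 95% critical value among 28 groups of 4 examined, of which chance flags about 1 in 20. No cholinergic gene had such a value among the 4 βPrlR+/- mice, and the group of 3 Prlr+/- mice was too small to examine.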

How the results depend on the processing

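No cholinergic gene reached an adjusted p under 0.05 in any setting (limma), as in the reported fit, where 5 had an unadjusted p under 0.05. ACHE, SLC5A7, SLC18A3, CHRNA3 and CHRM4 were fitted lower and CHRM3 higher in all 15 refits, and CHRNB4 lower in the 14 that tested it. Leaving out a mouse moved CHRM3 from 0.15 to between 0.03 (without Prlr+/- mouse 3; 0.07 without βPrlR+/- mouse 3) and 0.27 (without Prlr+/- mouse 1), and CHRM4 from -0.15 to between -0.27 (without Prlr+/- mouse 1, limma unadjusted p = 0.0472) and -0.09 (without Prlr+/- mouse 2; -0.10 without mouse 3). CHRNB2 changed sign with TPM as deposited (-0.10), a scaling under which the all-gene median was -0.12, and leaving out each mouse gave -0.00011 to 0.0776. With TPM as deposited CHRM3 was at 0.02 and CHRM4 at -0.26. Relative to the β-cell list CHRM3 was at -0.18 and CHRM4 at -0.49. Relative to the δ- and PP-cell list CHRM3 was at 0.31 and CHRM4 at -0.00052. Relative to the acinar list they were at 0.07 and -0.24, and relative to the autonomic neuron list at 0.39 and 0.0872. The groups overlapped in each of these. The cause of these changes was not tested.

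The median of the tested cholinergic genes, -0.43, was -0.49 with TPM as deposited, -0.64 with a pseudocount of 0.1, which shrinks low genes less, -0.51 with at least 0.5 TPM in every mouse, which drops CHRNB4, and -0.47 to -0.38 when each mouse was left out. The number of all genes past the threshold, 10, was 5 without the insulin genes, 18 with a pseudocount of 0.1, 4 with all genes above 0, which tests 27935 genes, 2 with the neuron list mean as a covariate, and 2 to 13 when each mouse was left out, lowest without βPrlR+/- mouse 4. With that covariate the log2 fold change was -0.62 for ACHE, -0.54 for SLC5A7, -0.52 for SLC18A3, -0.50 for CHRNA3 and -0.34 for CHRNB4. The lowest adjusted p of a member in that fit was 0.711 (limma), for SLC18A3. Whether that covariate follows the neuron content of the islets was not tested. No paired analysis was possible because the mice of the 2 groups share no numbers in the labels. TPM values hold no read counts, so the counting error of the low genes CHAT and CHRNA5 is not known here.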
